A study of Mus musculus with 30 samples.

Results

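The 9 genes described here make and sense prostaglandins: the phospholipase Pla2g4a, the cyclooxygenases Ptgs1 and Ptgs2, the terminal synthases Ptges and Ptgis, and the receptors Ptger1, Ptger2, Ptger4 and Ptgfr. They were taken by the gene name printed for each probe in the array files. The 9 genes were covered by 11 of the 33453 named probes, which stood for 21689 genes. Ptgs2 and Pla2g4a had 2 probes each and every other member had 1.

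Prostaglandins are lipid signals made on demand. Cytosolic phospholipase A2, the product of Pla2g4a, frees arachidonic acid from membranes, and the cyclooxygenases turn it into prostaglandin H2, the common precursor. Terminal synthases then make the active prostaglandins: Ptges makes prostaglandin E2 and Ptgis makes prostacyclin. The products act on G protein coupled receptors, among them EP1, EP2 and EP4 for prostaglandin E2 (Ptger1, Ptger2 and Ptger4) and FP for prostaglandin F2α (Ptgfr). Ptgs1 is usually described as the constitutive cyclooxygenase, and Ptgs2 as the form induced by cytokines, stress and growth factors, also in fibroblasts.

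The study asked which genes respond to stress through the p38 stress-activated protein kinase in immortalised mouse embryonic fibroblasts (MEFs), with a wild type line and a p38α-/- line, each a single line. There were 30 two-colour arrays in 15 groups of 2. Wild type cells received one of 3 stresses. Anisomycin, an inhibitor of protein synthesis, was used at 25 ng/ml, which by the study does not block it fully. The inflammatory cytokine TNFα was used at 100 ng/ml, and both were given during 45 min. NaCl, an osmotic stress at 100 mM, lasted 45 min, 2 h or 8 h. The same 5 stresses were given to wild type cells with the p38 inhibitor SB203580, and 1 group had SB203580 alone. The sample titles give SB203580 as 10 mM and 2 h, whereas the protocol gives 10 µM for 30 min before the stress. The p38α-/- cells were left untreated or given anisomycin, TNFα or NaCl for 2 h at those doses. Every sample was labelled with Cy5 and set against a Cy3-labelled pool from 2 untreated wild type MEF samples. The pool was the only untreated wild type material, no dyes were swapped, and all values below are log2 ratios of sample over pool unless a difference between groups is named.

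Mapk14, the gene of p38α, read -2.24 to -0.94 on the 6 knockout arrays that measured it and 0.05 to 1.31 on 16 wild type arrays. Whether its probe lies in the deleted part is not given in the sources used here. By the best probe of each gene, all 10 listed fibroblast markers were well above background in Cy5 on all 30 arrays. So were all 6 macrophage markers, 3 of 4 endothelial markers and both epithelial markers on the array. Some other probes of these genes carried this mark on fewer arrays, a Vim probe on 17 and a Ptprc probe on 0. That mark separated little, since 81.1 to 96.8% of spots carried it. Outlier spots, 6.78 to 44.8% of an array, were left out, and a member with no probe left on an array of a group was not tested there. The 2 arrays of a group correlated at 0.41 to 0.67 over genes.

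The promoters of the cyclooxygenase pair are shown because the values below turn on these genes. Ptgs2 lies on chromosome 1 (GRCm38.p6, chr1:150100031-150108234), 139 kb from Pla2g4a (chr1:149829618-149961290), and Ptgs1 on chromosome 2 (chr2:36216742-36258593). The sequences are RefSeq's, 250 bases before and 50 after a start it lists for the gene, from chr1:150099781-150100080 and chr2:36230176-36230475, both on the plus strand. For Ptgs2 that start is the first base of the span given here, whereas for Ptgs1 it lies inside the span, and the sequence before the first base of the Ptgs1 span was not analysed here. Capitals mark matches, on either strand, to TATAAA (the TATA box), TGACGT (the core of the cyclic AMP element), TGANTCA (AP-1), CACGTG (E-box), TTNNGNAA (C/EBP), GGGCGG (SP1) and the NF-kappaB motif.
Ptgs2: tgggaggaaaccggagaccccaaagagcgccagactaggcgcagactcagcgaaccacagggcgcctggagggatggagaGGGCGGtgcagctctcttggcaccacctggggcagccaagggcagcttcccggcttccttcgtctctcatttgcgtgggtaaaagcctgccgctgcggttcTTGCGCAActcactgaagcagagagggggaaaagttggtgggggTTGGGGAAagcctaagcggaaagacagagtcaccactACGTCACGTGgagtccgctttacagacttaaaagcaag
Ptgs1: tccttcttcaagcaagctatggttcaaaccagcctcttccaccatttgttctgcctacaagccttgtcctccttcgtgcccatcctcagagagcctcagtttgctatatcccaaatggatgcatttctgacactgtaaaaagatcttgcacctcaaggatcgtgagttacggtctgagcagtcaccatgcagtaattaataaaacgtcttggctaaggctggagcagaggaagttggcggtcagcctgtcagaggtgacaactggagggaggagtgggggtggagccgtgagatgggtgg

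The Ptgs2 window held 4 of the 7 motifs and the Ptgs1 window none. In Ptgs2 the matches were SP1, C/EBP at 2 places, and a reversed TGACGT that overlaps the E-box, 12 to 21 bases after the start. Among all 32851 promoters of this length, 7.51% held TGACGT, 7.15% CACGTG, 40.7% the C/EBP letters and 35.7% GGGCGG. The shares were 13.6% for TATAAA, 7.81% for TGANTCA and 8.46% for NF-kappaB. Of the members, 7 had a promoter in the table, and TGACGT and CACGTG were found in Ptgs2 alone among their 8 windows. Ptges and Ptgfr held C/EBP and SP1 matches, Ptger4 held 4 of SP1, and Ptger2 held 3 of C/EBP. These are matches of letters, not measured binding.

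Against the pool, Ptgs2 was the member with the widest range, from -0.12 to 3.81 over the 30 arrays. It passed an adjusted p of 0.05 (limma, adjusted over all genes tested) in 7 of 15 groups, all of them stressed. Ptgs1 passed in 9 groups, all of wild type cells, at 1.63-fold or less. Ptger2 passed as lower in 3 groups, Pla2g4a and Ptger1 as higher in 2 groups each, and Ptges and Ptger4 in 1, whereas Ptgis and Ptgfr passed in none. In bulk RNA such as this, fewer cells of a type and less RNA per cell cannot be told apart.

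The share of all genes that passed the same test is the background for these counts. Of wild type groups, anisomycin had 2 of 6 tested members called and 12% of all genes, TNFα 1 of 7 and 11%, NaCl at 45 min 2 of 6 and 9.88%, at 2 h 2 of 7 and 9.92%, and at 8 h 1 of 7 and 22.2%. With SB203580 alone 2 of 7 members and 26.6% of genes were called. With SB203580 and stress the figures were 1 of 7 and 11.7% for anisomycin, 1 of 8 and 9.52% for TNFα, and 1 of 7 and 16.8%, 2 of 7 and 17.1%, and 1 of 7 and 21.2% for NaCl at 45 min, 2 h and 8 h. In p38α-/- cells they were 3 of 8 and 15% untreated, 0 of 8 and 12.4% for anisomycin, 0 of 7 and 7.62% for TNFα, and 6 of 9 and 18% for NaCl at 2 h. At an unadjusted p under 0.05, 5 of 8 members passed in the p38α-/- anisomycin group and 0 of 7 in the TNFα group. Of all tested genes, 4954 of 18595 and 3597 of 16622 passed it there. The median over the tested members lay between -0.05 and 0.30 in these groups, against 0 to 0.02 over all tested genes. The p38α-/- NaCl group had the highest count of called members.

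**Figure D1:**
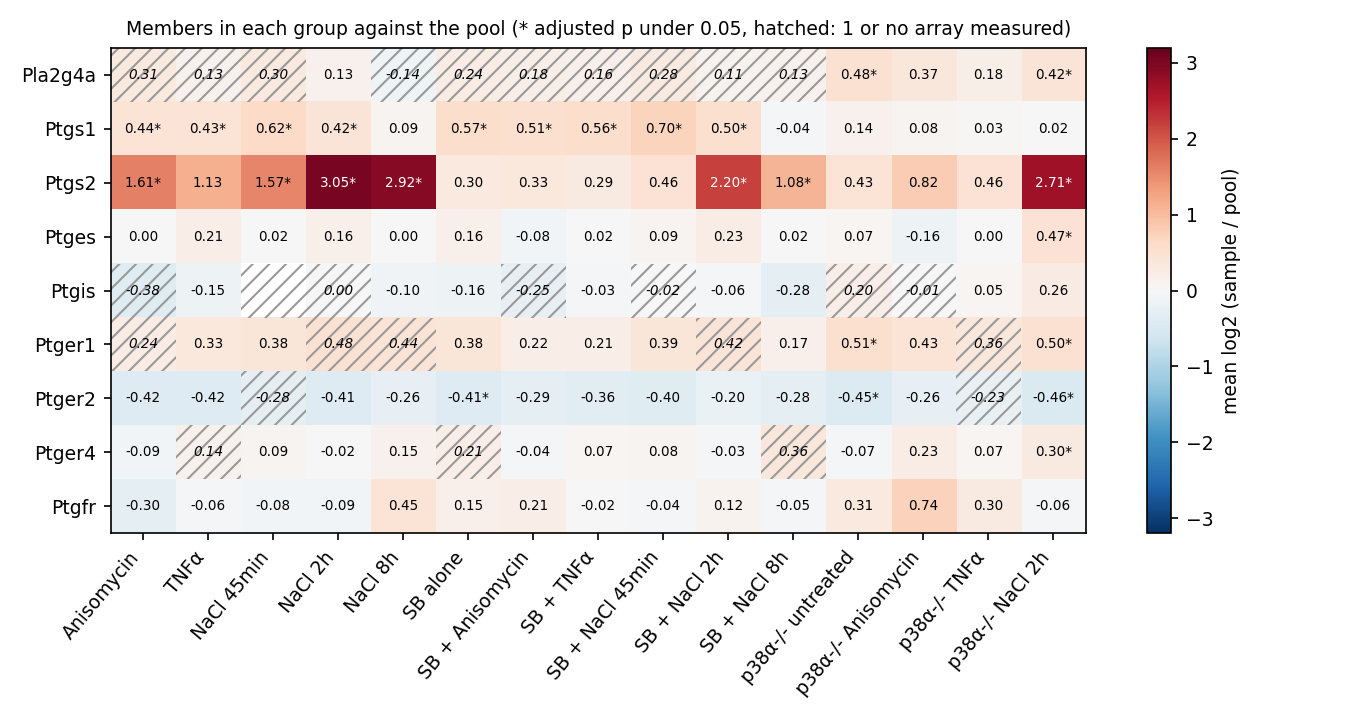
Mean log2 ratio of sample over pool for the 9 members (rows) in the 15 groups (columns), as colour and number. A star marks an adjusted p under 0.05, and hatched cells had 1 array or none left after outlier spots were removed; Ptgs2 holds the 4 highest means, from 2.20 to 3.05, all under NaCl for 2 h or 8 h.

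Ptgs2 rose under NaCl, the only stress given for longer than 45 min, and its highest means were at 2 h and 8 h. At 45 min its NaCl and anisomycin arrays overlapped. At that time the NaCl replicate 1 and 2 arrays read 2.26 and 0.89. At 2 h they read 3.81 and 2.28, and at 8 h 3.29 and 2.56. All 6 arrays lay above the pool, and both later time points lay above the 45 min arrays. The means were 1.57 ± 0.97 (SD, n = 2) at 45 min (2.97-fold, adjusted p = 0.0115), 3.05 ± 1.08 at 2 h (8.25-fold, adjusted p = 4.45e-05) and 2.92 ± 0.52 at 8 h (7.59-fold, adjusted p = 1.6e-05).

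With anisomycin Ptgs2 read 2.32 and 0.91, a mean of 1.61 ± 1.00 (3.06-fold, adjusted p = 0.00831). TNFα gave 1.56 and 0.70, a mean of 1.13 ± 0.61. The TNFα value missed the threshold (adjusted p = 0.0537) and passed it with the replicate number as a block (adjusted p = 0.00324), after normexp background correction (0.69, adjusted p = 0.0435), in the authors' value table (0.0366), with outlier spots kept (0.0330) and with probes well above background alone (0.0499). All 4 of these arrays lay above the pool. Without replicate 1, the anisomycin call (0.91, adjusted p = 0.429) and the NaCl 45 min call (0.89, adjusted p = 0.414) were lost. Leaving out 1 of 2 arrays takes the spread of the lone array from the other groups, here and below, so a call can be lost with little change in value.

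**Figure D2:**
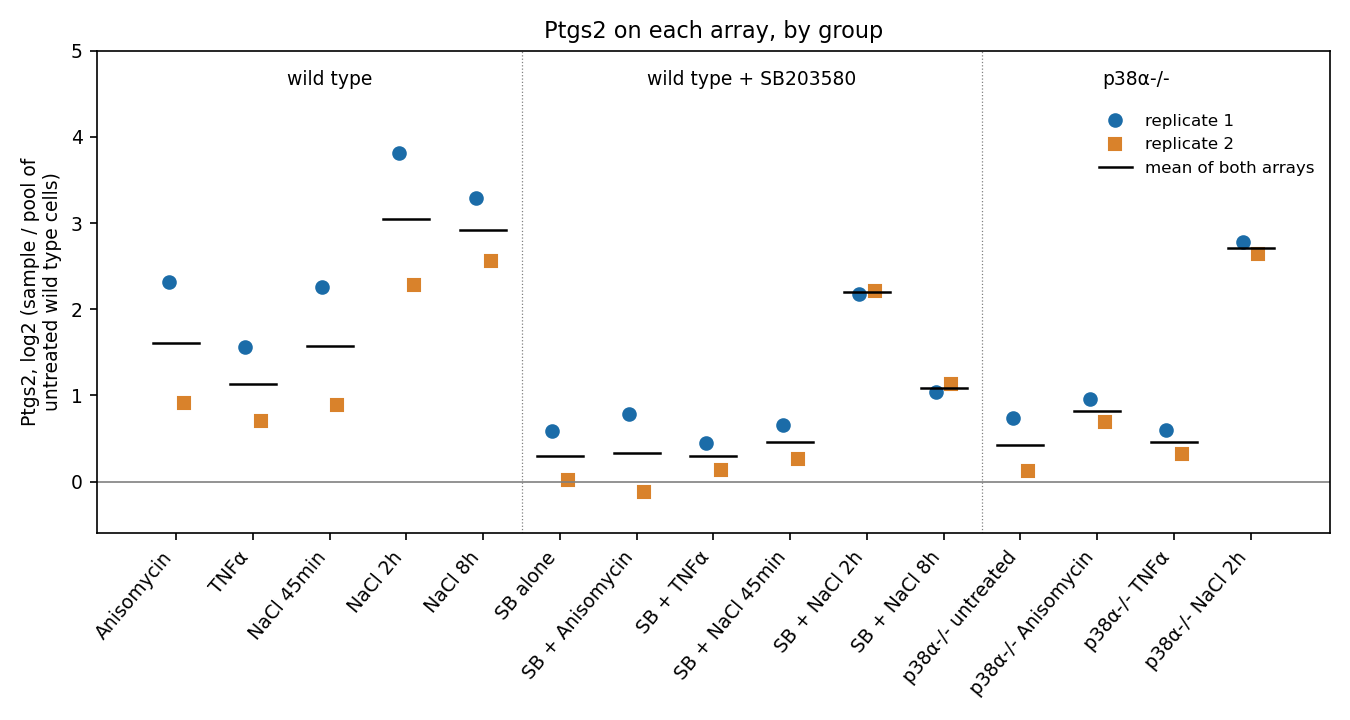
Ptgs2 on each of the 30 arrays as the log2 ratio of sample over pool, by group, with circles for replicate 1, squares for replicate 2 and a line for the mean of both. Replicate 1 reads higher than replicate 2 in 9 of 11 wild type groups, and the groups without stress or with SB203580 and a 45 min stress stay below 0.8.

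The spread within groups followed the replicate number. Replicate 1 read above replicate 2 in 9 of 11 wild type groups, by a median of 0.74, and in 4 of 4 knockout groups, by a median of 0.27. The Cy3 signal of Ptgs2, which is the pool's, also differed between the replicate numbers, lower in replicate 1 of the wild type and higher in replicate 1 of the knockout. Relative to the array's median Cy3 signal, it lay between -2.68 and -1.81 (log2, median -2.35) on the 11 wild type replicate 1 arrays and between -2.36 and -1.48 (median -1.96) on the 11 replicate 2 arrays. On the knockout arrays the medians were -1.87 for replicate 1 and -2.21 for replicate 2. All wild type replicate 1 arrays were scanned on 1 day, and the wild type replicate 2 and knockout replicate 1 arrays on another. The part of the pool signal and of the scan day in the Ptgs2 ratios was not tested. Within a genotype the replicate number paired the samples over all genes, so fits with it as a block are given where they change a call. In wild type cells the replicate number is also the scan day, so the 2 cannot be told apart there. Between wild type groups the replicate block and the scan day block are therefore 1 adjustment. Both Ptgs2 probes were well above background on every array and differed by a median of 0.0017, with a range of -0.57 to 0.86.

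With SB203580, Ptgs2 stayed near the pool after the 45 min stresses. The replicate 1 and 2 arrays read 0.58 and 0.02 for SB203580 alone, 0.78 and -0.12 with anisomycin, 0.45 and 0.14 with TNFα, and 0.65 and 0.26 with NaCl for 45 min. These 8 arrays overlapped one another, and none of the 4 means, 0.29 to 0.46, passed the test. NaCl for 2 h gave 2.18 and 2.21 with the inhibitor, a mean of 2.20 ± 0.02 (4.58-fold, adjusted p = 0.000733), and NaCl for 8 h gave 1.04 and 1.13, a mean of 1.08 ± 0.07 (2.12-fold, adjusted p = 0.0417). The 8 h call did not hold without either array (1.13 without replicate 1 and 1.04 without replicate 2). It was also lost with the scan day as a block (0.75, adjusted p = 0.0690, limma). That setting lowered every wild type Ptgs2 value over the pool alike.

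Set against the same stress without the inhibitor, both SB203580 arrays lay below both arrays without it in all 5 stresses. The differences were -1.28 (SE 0.52) for anisomycin, -0.84 for TNFα, and -1.11, -0.85 and -1.84 for NaCl at 45 min, 2 h and 8 h, with the same SE. Replicate by replicate, and so within a scan day, they ran from -2.26 to -0.06, and the smallest came from replicate 2 at 2 h of NaCl. None passed an adjusted p of 0.05 (limma), where the lowest was 0.319 at 8 h. At an unadjusted p under 0.05 the anisomycin, NaCl 45 min and NaCl 8 h differences passed. With the replicate number as a block, the 8 h difference passed (adjusted p = 0.0112), as it did after normexp background correction (-1.50, adjusted p = 0.0454), and the other 4 did not. The tested members numbered 6, 7, 6, 6 and 6, none was called, and of all genes 0.0204% were called for anisomycin, 0% for TNFα and for NaCl at 45 min and 2 h, and 0.206% at 8 h. No member but Ptgs2 reached an unadjusted p under 0.05 in these 5 comparisons. Of all tested genes, 310 of 14699 reached it for anisomycin and 204 of 14367 for TNFα. For NaCl at 45 min, 2 h and 8 h they were 312 of 12180, 533 of 16729 and 758 of 15082.

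**Figure D3:**
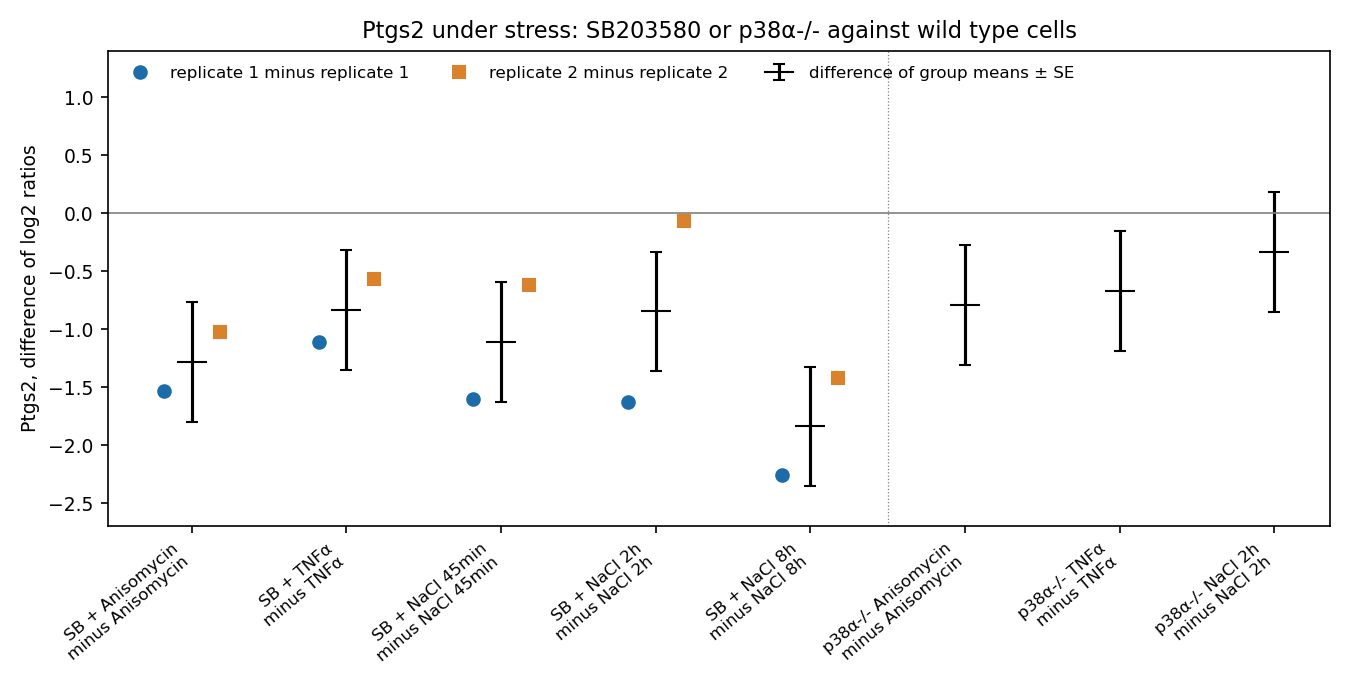
Differences in Ptgs2 log2 ratio under the same stress, for wild type cells with SB203580 minus those without (left, 5 stresses) and p38α-/- minus wild type cells (right, 3 stresses). Black marks are differences of group means ± SE, and circles and squares are differences within replicate 1 and within replicate 2, given for wild type cells, where all 10 are below 0.

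Stressed cells with SB203580 were also set against SB203580 alone. The Ptgs2 difference was 1.90 (SE 0.52) for NaCl at 2 h, at 1.60 within replicate 1 and 2.20 within replicate 2. Its adjusted p (limma) was 0.0561, or 0.0227 after normexp correction. With the replicate block it was 0.00206, and with the scan day block, the same adjustment between wild type groups, 0.00328. The difference was 0.78 at 8 h (adjusted p = 0.447), and 0.03, -0.01 and 0.16 for anisomycin, TNFα and NaCl at 45 min. The only member called was Ptgs1 at 8 h. The members called were 0 of 6 for anisomycin, 0 of 7 for TNFα, 0 of 6 for NaCl at 45 min, 0 of 6 at 2 h and 1 of 7 at 8 h, and the shares of all genes were 0.0140%, 0.0983%, 0.0435%, 2.87% and 7.78%. At an unadjusted p under 0.05, Ptgs2 alone passed at 2 h and no member passed in the 45 min comparisons. Of all tested genes, 2324 of 14584 passed it at 2 h. In the 45 min comparisons of anisomycin, TNFα and NaCl they were 840 of 14295, 639 of 14242 and 886 of 13796.

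This Ptgs2 difference was then compared with that of uninhibited wild type cells over the pool. With SB203580 minus without, it came to -1.58 (SE 0.63) for anisomycin, -1.14 for TNFα, and -1.41, -1.15 and -2.14 for NaCl at 45 min, 2 h and 8 h. The 5 comparisons share the SB203580 arrays, and all ratios share the pool. For any gene, an offset of sample over pool, as from the dyes, cancels on the SB203580 side only. SB203580 alone read 0.30 over the pool for Ptgs2, and the part of such an offset was not tested. Adjusted p-values were 0.215, 0.400, 0.352, 0.335 and 0.123. With the replicate block the anisomycin (adjusted p = 0.0388) and 8 h (adjusted p = 0.0121) differences passed, and the 8 h difference also after normexp correction (-1.61, adjusted p = 0.0444). No member was called without the block, of 5, 7, 5, 5 and 6 tested, against 0.583%, 0.651%, 0.0936%, 1.65% and 0.295% of all genes. At an unadjusted p under 0.05, 3, 1, 2, 2 and 2 members passed, Ptgs1 among them each time. Of all tested genes, 2323 of 13549, 2101 of 13369, 1559 of 11750, 2710 of 14316 and 2153 of 13562 passed it. Over the pool, Ptgs1 means other than at 8 h were 0.42 to 0.62 without the inhibitor and 0.50 to 0.70 with it. SB203580 alone read 0.57 for Ptgs1, which is subtracted on the inhibitor's side only.

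In p38α-/- cells Ptgs2 rose under NaCl. The untreated arrays read 0.74 and 0.12, anisomycin 0.96 and 0.69, TNFα 0.60 and 0.32, and NaCl for 2 h 2.78 and 2.64. The NaCl arrays lay above all others of the line, while anisomycin and TNFα overlapped the untreated arrays. NaCl at 2 h stood at 2.71 ± 0.09 over the pool (6.54-fold, adjusted p = 7.95e-05) and 2.28 (SE 0.52, adjusted p = 0.0394) over untreated p38α-/- cells. The second call was lost without any of its 4 arrays: the difference was then 2.59 or 1.97 without untreated replicate 1 or 2, and 2.21 or 2.35 without NaCl replicate 1 or 2. It was also lost with the knockout arrays fitted alone (adjusted p = 0.0502) and with the brighter probe alone (2.23, adjusted p = 0.0833). Against untreated cells the difference was 0.40 for anisomycin and 0.03 for TNFα, both with an adjusted p of 1. Anisomycin over the pool was 0.82 ± 0.19 (adjusted p = 0.154, and 0.0192 with the replicate block or 0.0253 with the scan day block). Members called against untreated p38α-/- cells were 0 of 8 for anisomycin, 0 of 6 for TNFα and 1 of 8 for NaCl, against 0.0847%, 0.0780% and 1.08% of all genes. Ptger4 passed an unadjusted p under 0.05 for anisomycin, Ptgs2, Ptges and Ptger4 for NaCl, and no member for TNFα. Of all tested genes, 579 of 16529 passed it for anisomycin, 1714 of 16615 for NaCl and 466 of 15386 for TNFα.

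Between the lines under the same stress, Ptgs2 differed by -0.79 (SE 0.52, adjusted p = 0.572) for anisomycin, -0.67 (adjusted p = 0.838) for TNFα and -0.34 (adjusted p = 0.853) for NaCl at 2 h, as p38α-/- minus wild type. The p38α-/- arrays lay below the wild type arrays for TNFα and overlapped them for the other stresses. The NaCl difference turned to 0.43 without wild type replicate 1. No member was called by limma, of 6, 5 and 7 tested, against 1.27%, 0.414% and 0.697% of all genes. At an unadjusted p under 0.05, 3, 1 and 3 members passed: Ptgs1 as lower in p38α-/- cells each time, Ptger4 as higher for anisomycin and NaCl, Ptgfr for anisomycin and Ptges for NaCl. Of all tested genes, 1932 of 15474, 1115 of 14265 and 2042 of 17645 passed it. Genotype and cell line cannot be told apart.

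Knockout replicate 1 and wild type replicate 2 were scanned on the same day. Between those arrays, 1 against 1 with no test, Ptgs2 differed by 0.05 for anisomycin, -0.10 for TNFα and 0.50 for NaCl at 2 h. The pair sets the replicate that read higher in the knockout against the one that mostly read lower in the wild type. With the scan day as a block the Ptgs2 differences were -0.26, -0.17 and 0.20 (adjusted p = 0.848, 0.937 and 0.905). Ptgs1 was lower in the knockout within the day too, by -0.49, -0.46 and -0.31, and with the block by -0.43, -0.48 and -0.47 (adjusted p = 0.296, 0.361 and 0.273).

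The Ptgs2 response of p38α-/- cells, over untreated p38α-/- cells, was compared with that of wild type cells, over the pool. The difference, p38α-/- minus wild type, was -1.22 (SE 0.63, adjusted p = 0.366, limma) under anisomycin and -1.10 (adjusted p = 0.436) under TNFα. Under NaCl for 2 h it was -0.77 (adjusted p = 0.607). For any gene, an offset of sample over pool, as from the dyes, cancels on the p38α-/- side only. Untreated p38α-/- cells read 0.43 over the pool for Ptgs2, and the part of such an offset was not tested. No member was called, of 6, 4 and 7 tested, and 0.542%, 0.450% and 0% of all genes were. At an unadjusted p under 0.05, 3, 1 and 2 members passed, Ptgs1 in each. Of all tested genes, 2252 of 14769, 1998 of 13780 and 2167 of 15939 passed it.

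Over time in NaCl, Ptgs1 fell, and no difference of Ptgs2 passed the test unless the settings below were changed. From 45 min to 2 h the Ptgs2 difference was 1.47 (SE 0.52, adjusted p = 0.596) without the inhibitor, at 1.55 in replicate 1 and 1.39 in replicate 2, and 1.74 (adjusted p = 0.187, or 0.0207 with the replicate block and 0.0258 with the scan day block) with it. From 2 h to 8 h the changes in the arms were not tested against each other. Without SB203580 the arrays overlapped and the difference was -0.12, at -0.52 in replicate 1 and 0.28 in replicate 2. It turned to 0.65 without replicate 1 at 2 h and to 0.25 without replicate 2 at 8 h. With SB203580 both replicates were lower at 8 h, by -1.14 and -1.08, a difference of -1.11 (adjusted p = 0.259, or 0.0359 with the replicate block and 0.0455 with the scan day block). From 45 min to 8 h the difference was 1.35 without SB203580 (adjusted p = 0.138, or 0.0110 with the replicate block, 0.0149 with the scan day block and 0.0231 after normexp correction) and 0.63 with it (adjusted p = 0.631). Over time in these wild type groups, the replicate block and the scan day block make the same adjustment.

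**Figure D4:**
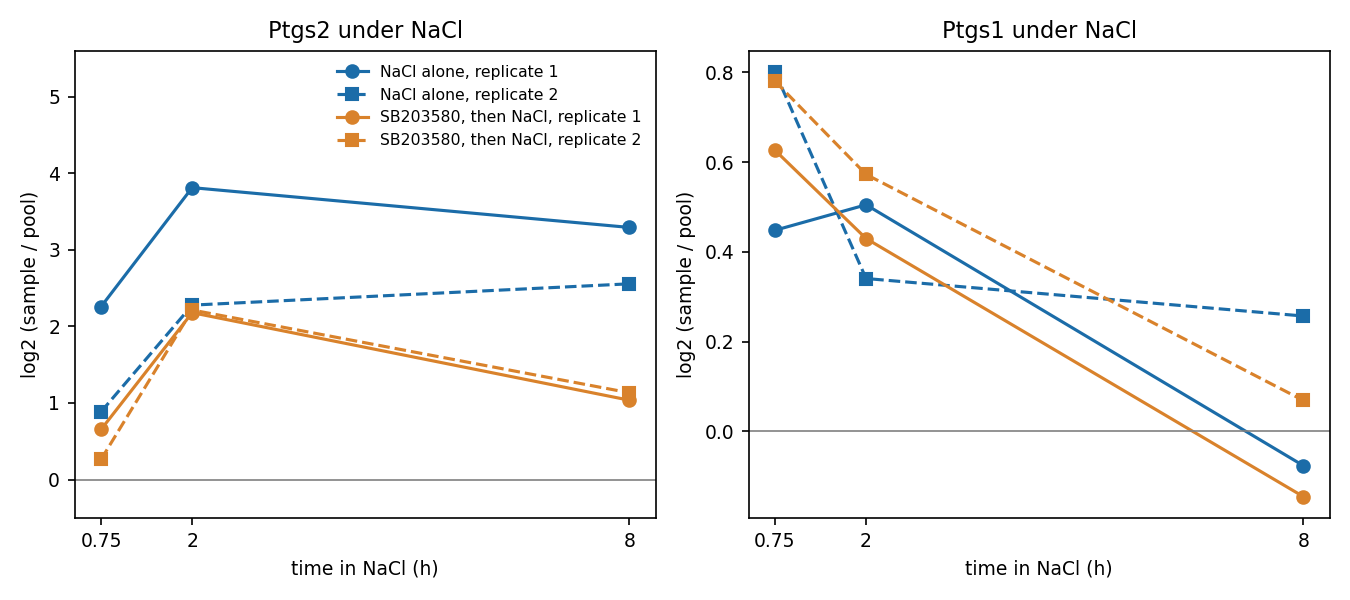
Log2 ratio of sample over pool for Ptgs2 (left) and Ptgs1 (right) in wild type cells after 0.75, 2 and 8 h in NaCl, alone (blue) or after SB203580 (orange), with solid lines for replicate 1 and dashed lines for replicate 2. Ptgs2 with SB203580 is lower at 8 h than at 2 h in both replicates, and all 4 Ptgs1 lines end at 0.26 or lower.

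Ptgs1, the constitutive cyclooxygenase, was above the pool in every wild type group but the 8 h ones. Over the 22 wild type arrays it ran from -0.15 to 0.82, and without the 4 arrays at 8 h the lowest value was 0.32. After NaCl alone the replicates read 0.45 and 0.80 at 45 min, 0.51 and 0.34 at 2 h, and -0.08 and 0.26 at 8 h. With SB203580 they read 0.63 and 0.78, 0.43 and 0.57, and -0.15 and 0.07. In each arm the 8 h arrays were below all arrays of both earlier times. The fall from 45 min to 8 h was -0.53 (SE 0.16, adjusted p = 0.0438) without SB203580 and -0.74 (adjusted p = 0.00684) with it. With SB203580, 8 h was also below 2 h by -0.54 (adjusted p = 0.0427) and below SB203580 alone by -0.61 (adjusted p = 0.0201).

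Each of these Ptgs1 calls was lost without at least 1 array. The fall without SB203580 was no longer called without replicate 2 at 45 min (-0.36) or replicate 1 at 8 h (-0.37), and the fall with it without replicate 2 at 45 min (-0.66) or replicate 1 at 8 h (-0.63). The 2 h to 8 h call was lost without any of its 4 arrays (-0.65 to -0.43), and the call against SB203580 alone without replicate 1 of that group (-0.36) or of the 8 h group (-0.50). Members called were 0 of 5 from 45 min to 2 h, 0 of 6 from 2 h to 8 h and 1 of 5 from 45 min to 8 h without SB203580, against 0.0540%, 7.81% and 7.53% of all genes. With it they were 0 of 6, 1 of 6 and 1 of 6, against 0.343%, 7.32% and 6.53%. In the 3 comparisons with 0 called, Ptgs2 passed an unadjusted p under 0.05 from 45 min to 2 h in both arms, and Ptgs1 from 2 h to 8 h without SB203580. Of all tested genes, 767 of 12968 passed it from 45 min to 2 h without SB203580 and 1349 of 14559 with it. From 2 h to 8 h without SB203580 they were 2998 of 15577.

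Against the pool, Ptgs1 stood at 0.44 ± 0.04 (SD, n = 2) for anisomycin, 0.43 ± 0.00 for TNFα, 0.62 ± 0.25 and 0.42 ± 0.12 for NaCl at 45 min and 2 h, and 0.57 ± 0.36 for SB203580 alone. With SB203580 it stood at 0.51 ± 0.01 for anisomycin, 0.56 ± 0.08 for TNFα, and 0.70 ± 0.11 and 0.50 ± 0.10 for NaCl at 45 min and 2 h. All 9 passed (limma), with adjusted p-values from 0.000586 to 0.0215. No untreated wild type sample was labelled with Cy5, and no dyes were swapped. The part of a dye effect or pool offset in these Ptgs1 values was not tested. On the 8 knockout arrays Ptgs1 read -0.03 to 0.20 and passed in no group. SB203580 alone and the stresses gave overlapping Ptgs1 values, apart from the 8 h groups. Each of the 9 calls was lost without at least 1 array. These were either array for anisomycin (0.47 or 0.41 left), TNFα (0.43 either way) and NaCl at 2 h (0.34 or 0.51), and either array for SB203580 with anisomycin (0.51 or 0.52) and with TNFα (0.50 or 0.61). They were replicate 2 for NaCl at 45 min (0.45 left) and for SB203580 with NaCl at 45 min (0.63) and 2 h (0.43), and replicate 1 for SB203580 alone (0.32).

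Pla2g4a, the phospholipase that starts the pathway, was measured in part. Of its 60 probe values, 30 were outliers, 25 of them on wild type arrays, so that both arrays of a wild type group were left for NaCl at 2 h only. Its probes disagreed: where both were measured, on 10 arrays, the first read below the second on all 10, by a median of -0.30. In p38α-/- cells the gene value was 0.57 and 0.39 untreated, 0.16 and 0.57 for anisomycin, 0.12 and 0.25 for TNFα, and 0.36 and 0.49 for NaCl. All 8 were above the pool. The untreated (0.48 ± 0.13, adjusted p = 0.0294) and NaCl (0.42 ± 0.09, adjusted p = 0.0423) means passed. Both calls were lost without either array (0.39 or 0.57, and 0.49 or 0.36), and with the scan day as a block (adjusted p = 0.101 and 0.138). The lower-reading probe entered only the replicate 2 NaCl value of these 4. The 12 wild type values ran from -0.14 to 0.31. On the higher-reading probe alone they ran from -0.14 to 0.45 and the 8 knockout values from 0.12 to 0.79, so the lines overlapped on the same probe.

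Ptges, the inducible prostaglandin E synthase, lay near the pool in all groups but one. It ran from -0.16 to 0.32 over the 22 wild type arrays. In p38α-/- cells it read 0.19 and -0.06 untreated, -0.07 and -0.25 for anisomycin, and 0.02 and -0.03 for TNFα. NaCl for 2 h gave 0.37 and 0.56, above every other array of either line. The NaCl mean of 0.47 ± 0.13 (1.38-fold) passed against the pool (adjusted p = 0.00376), though neither without replicate 2 (0.37) nor after normexp background correction (0.23, adjusted p = 0.0604). Against untreated p38α-/- cells it was 0.40 higher (adjusted p = 0.260), and against wild type cells under NaCl 0.30 higher (adjusted p = 0.422).

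Ptgis, the prostacyclin synthase, passed in no comparison. It was measured on 22 arrays and ran from -0.44 to 0.11 in wild type and from -0.01 to 0.33 in p38α-/- cells, with ranges that overlapped. Its 2 p38α-/- NaCl arrays, at 0.33 and 0.19, and the untreated replicate 2 array, at 0.20, were the highest.

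Of the receptors, Ptger1 lay above the pool and Ptger2 below it on every array that measured them. Ptger1, the EP1 receptor, ran from 0.02 to 0.67 on 25 arrays. It passed in untreated p38α-/- cells (0.64 and 0.38, mean 0.51 ± 0.18, adjusted p = 0.0333) and in p38α-/- cells under NaCl (0.66 and 0.33, mean 0.50 ± 0.24, adjusted p = 0.0324). Both calls were lost without either array (0.38 or 0.64, and 0.33 or 0.66) and after normexp correction (0.26 and 0.29).

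Ptger2, the EP2 receptor, ran from -0.61 to -0.05 on 28 arrays. It passed as lower with SB203580 alone (-0.39 and -0.42, mean -0.41 ± 0.02, adjusted p = 0.0358), in untreated p38α-/- cells (-0.54 and -0.35, mean -0.45 ± 0.14, adjusted p = 0.0364) and in p38α-/- cells under NaCl (-0.41 and -0.52, mean -0.46 ± 0.08, adjusted p = 0.0271). Each call was lost without either array: -0.42 or -0.39, -0.35 or -0.54, and -0.52 or -0.41 were left. With the replicate block 5 more wild type groups passed as lower, at -0.42 for anisomycin, -0.42 for TNFα and -0.41 for NaCl at 2 h, and at -0.36 and -0.40 for SB203580 with TNFα and with NaCl at 45 min. No difference between groups passed an adjusted p of 0.05 for either receptor. A ratio that keeps 1 sign on all arrays, with or without stress, cannot be told apart from a dye effect of the probe, since no dyes were swapped.

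Ptger4, the EP4 receptor, ran from -0.17 to 0.36 on 27 arrays. In p38α-/- cells it read -0.06 and -0.07 untreated, 0.18 and 0.28 for anisomycin, 0.06 and 0.09 for TNFα, and 0.25 and 0.35 for NaCl. The 6 stressed arrays lay above the untreated pair. NaCl passed against the pool (0.30 ± 0.07, 1.23-fold, adjusted p = 0.00964) but not without replicate 2 (0.25). Anisomycin stood at 0.23 ± 0.07 (adjusted p = 0.0518, or 0.0484 with the replicate block). Against untreated p38α-/- cells the differences were 0.36 for NaCl (SE 0.10, adjusted p = 0.123) and 0.29 for anisomycin (adjusted p = 1).

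Ptgfr, the FP receptor, was dim. Its Cy5 signal was well above background on 21 of 30 arrays, on neither array of SB203580 with NaCl at 45 min, and on both in 7 groups. Values ran from -1.10 to 1.18, and the arrays of a group differed by up to 1.60, after anisomycin in wild type cells. The highest mean was 0.74 ± 0.62 for anisomycin in p38α-/- cells (adjusted p = 0.103, or 0.0341 with the replicate block), where each channel was well above background on 1 of 2 arrays. Replicate 2 read above replicate 1 in all 11 wild type groups.

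Ordered by mean, the Ptgs2 groups ran from wild type NaCl at 2 h (3.05) through NaCl at 8 h (2.92), p38α-/- NaCl (2.71), SB203580 with NaCl at 2 h (2.20), anisomycin (1.61), NaCl at 45 min (1.57), TNFα (1.13), SB203580 with NaCl at 8 h (1.08) and p38α-/- anisomycin (0.82) down to 6 groups at 0.46 or less. Arrays of neighbouring groups overlapped except below p38α-/- NaCl, below SB203580 with NaCl at 8 h and below p38α-/- anisomycin. The lowest 6 were the unstressed groups, the SB203580 groups with a 45 min stress, and p38α-/- cells with TNFα.

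The named genes with group means most like those of Ptgs2, among 10443 measured on all arrays, were Dusp4 (Pearson's r = 0.95 over the 15 groups), Twist1 (0.90), Kcnk5 (0.89), Klf4 (0.89) and Ier5 (0.87). The points share the pool, the dyes and the scan days. Dusp4, a phosphatase of MAP kinases, ran from -0.36 in SB203580 alone to 1.62 in wild type NaCl at 2 h. Klf4, a transcription factor, ran from 0.44 to 3.03, its highest group p38α-/- NaCl. Twist1, also a transcription factor, and Ier5, an immediate early gene, had their highest means in p38α-/- NaCl, at 1.68 and 2.76. Wild type NaCl at 2 h lay close for both, at 1.66 and 2.75. Kcnk5, a potassium channel, was highest in wild type NaCl at 2 h, at 0.26. Ranked by Spearman's rho, Dusp4 and Klf4 stayed among the first 5.

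Of 36 other genes of eicosanoid synthesis, transport, breakdown and reception, 35 were on the array under the listed names, and 18 to 30 could be tested in a comparison. The calls of these genes were not rechecked with an array left out or with other settings. Against the pool 0 to 6 passed in a group. NaCl at 45 min and at 2 h had 0 of 20 and 0 of 29, against 9.88% and 9.92% of all genes. SB203580 with TNFα had 0 of 26, against 9.52%. The highest counts were 6 of 27 in NaCl at 8 h, where 22.2% of all genes passed, and 6 of 25 with SB203580 alone, where 26.6% did, so these shares lay near the background. In p38α-/- NaCl and in SB203580 with NaCl at 2 h, 4 of 30 and 4 of 27 passed, against 18% and 17.1% of all genes. Ptgr1, which breaks down prostaglandins and leukotriene B4 and is named Ltb4dh on the array, was higher in all 4 p38α-/- groups, by 0.85 untreated, 0.53 with anisomycin, 0.58 with TNFα and 0.69 with NaCl. Ptgr2, a prostaglandin reductase named Zadh1 on the array, was lower at 8 h of NaCl, by -0.53 without and -0.70 with SB203580. It was the only listed gene called between groups: 8 h against 2 h (-0.60 without and -0.92 with SB203580), 8 h against 45 min (-0.64 and -0.65) and 8 h against SB203580 alone (-0.64). In that order this was 1 of 26, 26, 20, 22 and 23 listed genes tested. Of all genes, 7.81%, 7.32%, 7.53%, 6.53% and 7.78% were called, so these shares did not exceed the background.

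Other calls against the pool were fewer. Among synthases, Ptges2 was lower with anisomycin (-0.30), TNFα (-0.31) and NaCl at 8 h (-0.41), and Hpgds, a prostaglandin D synthase named Ptgds2 on the array, was lower with SB203580 and NaCl at 2 h (-0.63) and 8 h (-0.46). Of phospholipases, Pla2g6 was lower in 5 groups (-0.52 to -0.38) and Pla2g2a with SB203580 alone (-0.37). Abcc4, an efflux pump that also carries prostaglandins, was higher with anisomycin (0.67) and with SB203580 alone (0.67). The thromboxane receptor Tbxa2r was lower with SB203580 and anisomycin (-0.75) or NaCl at 45 min (-0.88), and the receptor partner Ptgfrn in p38α-/- cells with anisomycin (-0.57).

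Genes of the leukotriene branch were called too. Ltc4s, which makes leukotriene C4, was higher in SB203580 with NaCl at 2 h (1.81) and in p38α-/- NaCl (2.17), and Alox5ap, the partner of 5-lipoxygenase, in p38α-/- NaCl (0.30). No difference of either gene between these groups and wild type NaCl at 2 h was called. Alox5 was lower with SB203580 and NaCl at 45 min (-0.38) and 2 h (-0.35), and Alox15 with SB203580 alone (-0.68) and NaCl at 8 h (-0.56). Cysltr1 was higher in NaCl at 8 h (0.95) and SB203580 with NaCl at 45 min (0.73). The receptors Ltb4r2 (-0.98) and Cysltr2 (-0.44) were lower with SB203580 alone. Anxa1, known to hold back phospholipase A2, was higher in NaCl at 8 h without (0.86) and with (0.87) SB203580.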

How the data were processed

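The authors hybridised Cy5-labelled samples against a Cy3-labelled pool of untreated wild type RNA on Agilent mouse arrays and deposited the scanner's text files. Per the file headers these came from Feature Extraction 8.1.1.1, whereas the submitters' processing notes name version 9.1. The LogRatio column deposited by the authors holds log10 ratios of processed red over green, with background subtracted and dyes normalized. The deposited files also hold each spot's intensity in both channels. The authors' value table holds log2 ratios of the same arrays; its outlier handling is not given in the sources used here, and it served as an alternative.

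LogRatio was turned into log2, control spots and any spot with an outlier flag for red or green were dropped, and spots, then probes, were averaged per gene. Group means were fitted on all 30 arrays with limma 3.58.1 in R 4.3.3 (15 residual degrees of freedom), and p-values adjusted by Benjamini-Hochberg over all genes measured on every array of the groups compared. The 2 arrays of a group are biological replicates by the study's methods. The ratio against 0 leaves out the spread of the control. The fit was tested on simulated data first, with and without the replicate block. It recovered 88.6 to 97.7% of the changed genes tested, and 4.70 to 7.46% of its calls were false.

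Groups came from the sample titles. Replicate numbers were taken to pair samples within a genotype. Deviations of same-numbered samples correlated above 0.1 in 55 of 55 wild type and 6 of 6 knockout pairs of groups, and in 6 of 44 across genotypes. In wild type cells the replicate number is also the scan day, so the correlation cannot tell a pairing of samples from a scan day effect. Named were all members, Mapk14, listed pathway genes past the threshold, and the 5 genes most like Ptgs2. Members and lists were chosen with earlier results of these data known. Alternatives were normexp correction with loess, the value table, outliers kept, the brightest probe, only probes well above background, the replicate block, arrays of 1 genotype, a 2.5-fold cutoff, leaving out each array, and, added after seeing the data, the scan day as a block. The scan day block reads values over the pool, and differences of response, at the average of all scan days. No group was scanned on all of them, so such values shift with the block whatever the group's own arrays read. The number of arrays limits the precision. Promoters are RefSeq's (GRCm38.p6), which lists none here for Ptgis and Ptger1.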

Additional observations from a re-analysis of the deposited data

Results flagged for a closer look

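Ptgs2 differed between arms in its response, as tested (limma) with the replicate number as a block. The response was taken over SB203580 alone with the inhibitor and over the pool without it. SB203580 alone read 0.30 over the pool, which is subtracted on the inhibitor's side only. The Ptgs2 rise with anisomycin was smaller with SB203580 than without by -1.58 on the log2 scale (adjusted p = 0.0388). For NaCl at 8 h the figure was -2.14 (adjusted p = 0.0121). Without a block, on the scanner's own ratios, both missed the threshold (adjusted p = 0.215 and 0.123), and with the scan day as a block too (adjusted p = 0.132 and 0.0599). After normexp correction with no block the NaCl 8 h difference passed (-1.61, adjusted p = 0.0444).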

How the results depend on the processing

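Of 30 calls among the members, 26 were lost without some array, which leaves 1 array in that group with its spread assumed to be that of the other groups, and some were lost with little change in value. The 4 that never were are Ptgs2 over the pool under NaCl at 2 h and 8 h, with SB203580 and NaCl at 2 h, and in p38α-/- NaCl. With 2 arrays a group, small differences could not be resolved, and dim Ptgfr was near background. Ptgs2 was checked in every comparison and the other members only where called. The listed eicosanoid genes outside the members were not checked. Over these checks, 629 stayed on their side of the threshold, 69 lost it, 23 gained it and 20 changed sign; the cause was not tested.

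The 25 member calls against the pool became 44 with the authors' value table, 41 with outlier spots kept, 16 with arrays of 1 genotype and 6 by a 2.5-fold cutoff, and 20 to 28 with an array left out. The 0 calls with SB203580 against stress alone became 1 with normexp, with the replicate block, with the scan day block and by 2.5-fold. The 0 between genotypes became 0 to 1 with an array left out, and arrays of 1 genotype could not be used there. The 2 calls against unstressed cells became 3 with normexp, with the replicate block and with the scan day block, 1 with the brightest probe and 1 with arrays of 1 genotype, and 0 to 3 with an array left out. The 3 calls over time became 6 with the replicate block, 6 with the scan day block and 1 with arrays of 1 genotype, and 1 to 3 with an array left out. The 0 differences of response became 7 with the value table, all of Ptgs1, where the wild type side keeps any offset over the pool. They became 1 with normexp, 1 with outlier spots kept, 2 with the replicate block and 3 by 2.5-fold. Fitted on arrays of 1 genotype, p38α-/- calls over the pool other than that of Ptgs2 were lost (adjusted p = 0.0554 for Ptges to 0.115 for Ptger2), as were SB203580 with NaCl at 8 h for Ptgs2 (0.0704) and Ptgs1 at 8 h against 45 min without (0.0697) and against 2 h with SB203580 (0.0700). The last 2 were also lost with normexp (0.0567 and 0.0844).

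The sign changes found among these checks, which left out uncalled results of other members, were in Ptgs2. With the scan day as a block, values over the pool turned to -0.037 for SB203580 alone, -0.0057 with anisomycin and -0.043 with TNFα, and p38α-/- minus wild type NaCl to 0.196. This block reads values over the pool at the average of all scan days, on some of which no wild type array was scanned. All wild type Ptgs2 values over the pool so moved down by the same amount, with no change in the differences between them. Leaving out 1 array at a time gave -0.122 to 0.785 for SB203580 with anisomycin over the pool, -1.10 to 0.432 for p38α-/- minus wild type NaCl and -1.53 to 0.0020 for its difference of response. It gave -0.283 to 0.341 for TNFα against untreated p38α-/- cells, with -0.113 without TNFα replicate 1, and -0.888 to 0.646 for NaCl at 8 h against 2 h, with 0.247 without 8 h replicate 2. Against SB203580 alone it gave -0.422 to 0.484 for anisomycin, with -0.252 without replicate 2 of SB203580, -0.290 to 0.276 for TNFα, with 0.151 without its replicate 2, and -0.124 to 0.442 for NaCl at 45 min, with -0.036 without its replicate 1. TNFα against untreated p38α-/- cells was -0.0046 with normexp, and against SB203580 alone 0.068 with normexp and 0.010 with the value table.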
